A study of Mus musculus with 36 samples.

Results

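The genes described here encode the proteasome and the proteins that assemble, activate or inhibit it in mouse brain. They are the 49 genes of the count table, out of 16614, whose symbol begins with Psma to Psmg followed by a digit. Of these, 47 belong to the proteasome system, and Psmc3ip (a recombination factor named for binding the ATPase Psmc3) and Psme2b (a retrocopy of Psme2) match by symbol only. The thymus subunit gene Psmb11 had 0 rows. The study examined whether FMRP, the RNA-binding protein lost in Fragile X syndrome, affects stalled ribosomes of neuronal RNA granules. Ribosome-protected fragments (RPFs, the stretches of mRNA that a ribosome shields from nuclease) were sequenced from the pellet of a sucrose gradient, taken as the fraction enriched in RNA granules though it may hold other ribosomes too, and from fraction 5/6, which holds ribosomes that do not pellet. RNA-seq of whole brain was made beside them, from C57BL/6 wild-type (WT) mice and from FMR1 knockout (FMR1 KO) mice, both at postnatal day 5. Each preparation pooled 10 brains, and 3 libraries were deposited for each of the 12 groups. The standard nuclease preparation used 10 mM MgCl2 throughout. The low nuclease preparation used 2.5 mM MgCl2, less nuclease and a cold digestion, so that the effects of salt and nuclease cannot be told apart. The knockout lacks FMRP in every cell of the animal, and whole brain mixes all its cell types.

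The 26S proteasome is the protease that degrades proteins tagged with ubiquitin. Its 20S core is a barrel of alpha and beta subunits in which Psmb5, Psmb6 and Psmb7 carry the active sites, and interferon replaces these with the immunoproteasome subunits Psmb8, Psmb9 and Psmb10. The 19S regulatory particle caps the barrel, with a ring of ATPases that unfold substrates, non-ATPase base subunits that bind ubiquitin and shuttle proteins, and a lid that holds the deubiquitinase Psmd14. Neurons rely on it for the turnover of synaptic proteins, and its subunits must be made in matched amounts to assemble.

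The members comprised 7 alpha and 7 beta core subunits, 6 ATPases, 3 non-ATPase base subunits (Psmd1, Psmd2, Psmd4), 8 lid subunits, 3 chaperones of the 19S particle, 4 chaperones of the 20S core, 4 activators, 3 immunoproteasome subunits, 1 inhibitor and the testis subunit Psma8. Many of these genes have processed pseudogenes, so that a short read from them may match elsewhere in the genome. In 16 members more than 10% of the 30-base stretches of the coding sequence occur elsewhere in GRCm38, and in 33 members 10% or less. The highest shares were 91.7% in Psma3, 89.4% in Psma5, 84.7% in Psmb3, 79.2% in Psme2 and 78.1% in Psmb5.

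Peaks of RPF coverage, which the paper presumes to mark stalling sites, were called by the authors in each standard nuclease library. On member transcripts, 8 peaks had a zenith within 6 nt in all 6 pellet libraries, 3 WT and 3 FMR1 KO. They lay on 5 core subunits, 4 of them on Psma5. All 5 genes are among the 16 with copies. Bases whose covering 30-base stretches are all found once make up 27.0% of the coding sequence of Psma2 and 9.67% of Psma4. They make up 3.44% of Psma5, 0.485% of Psmb3 and 3.40% of Psmb5. Whether these peaks depend on where short reads could be placed was not tested. For each gene 1 peak shared by every pellet library is shown. Its window lies within 1 exon, and most 30-base stretches over the zenith (80% to 93.3%) are found once in the genome. The sequences are 30 bases of GRCm38, 5′ to 3′ on the strand of the gene, with the codon at the zenith in capitals.
Psma2: atggcagagcgcGGTtacagcttctcgctg
Psma4: gaagtggaacagTTGatcaaaaaacatgaa
Psma5: gacaatgacagttGAGagtgtgacccaggc
Psmb3: ttccgactgaacTTGtatgagctgaaagaa
Psmb5: catggggctgtctATGggcaccatgatctg
The Psma2 window is at chr13:14613275-14613304 (+), begins at the start codon and has its zenith at codon 5 of 234. The Psma4 window is at chr9:54957697-54957726 (+), with codon 236 of 261, near the end of the coding sequence. The Psma5 window is at chr3:108267816-108267845 (+), with codon 110 of 241. The Psmb3 window is at chr11:97706814-97706843 (+), with codon 73 of 205. The Psmb5 window is at chr14:54616538-54616567 (−), with codon 156 of 264. All 5 are exonic and within the coding sequence.

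The heights of the shared peaks were compared by genotype. On Psmb5 the peak heights, in reads and not scaled between libraries, were 128, 78 and 65 in the WT pellet and 101, 73 and 99 in the FMR1 KO pellet. On Psma4 they were 86, 50 and 49 in WT and 127, 52 and 53 in FMR1 KO. On Psma5 they were 68, 43 and 36 in WT and 68, 52 and 33 in FMR1 KO. In these 3 genes the heights of the genotypes overlapped. On Psma2 they were 35, 34 and 28 against 28, 14 and 29, and on Psmb3 57, 55 and 13 against 53, 26 and 40, which also overlapped. The same position was a peak in all 6 fraction 5/6 libraries for Psma4, Psma5 and Psmb3, in 5 for Psma2 and in 4 for Psmb5. The positions were therefore not limited to the pellet.

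Member transcripts held 120 to 150 peaks in each of the 12 libraries, on 27 to 33 members, which was 0.368% to 1.23% of all peaks of a library. The pellet libraries together held 59 peaks on Psma2, 58 on the 19S chaperone Psmd5, 48 on the lid subunit Psmd13 and 43 on the ATPase Psmc6, and fraction 5/6 held 60, 46, 37 and 43. The base subunit Psmd1 differed, with 1 peak in the 6 pellet libraries and 35 in 4 of the fraction 5/6 libraries. For the activator Psme4 the order was the other way, with 95 peaks in the pellet and 23 in fraction 5/6. No peak lay on Psma8, Psmb8, Psmb9, Psmc3ip, Psmd7, Psme2, Psme2b, Psmg3 or Psmg4 in either fraction. On the 16 members with copies, 287 pellet peaks lay in coding sequence. Of these, 121 had every covering 30-base stretch found once in the genome, and 34 had every such stretch found elsewhere too, where the coding bases of these genes divide into 23.8% and 30.3%.

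Before the gene values, several facts of the libraries bear on them. The deletion was visible in Fmr1 itself, which fell by 3.72 (log2) in the standard FMR1 KO pellet (adjusted p = 0.00599) and by 1.90 in its RNA-seq (adjusted p = 3.67e-05). The library labelled WT fraction 5/6 replicate 3 of the standard preparation went against its label, with Fmr1 at 3.62 where the other WT fraction 5/6 libraries had 112 and 116 TMM-CPM and the FMR1 KO ones 7.80 to 8.43. The WT fraction 5/6 tests are given with and without it, while the fraction 5/6 peak counts above include it. Its Psmd1 level was also apart from the other fraction 5/6 libraries, as described below. Cdk8 took 36.7% to 63.4% of the counts of standard RPF libraries and was left out of all totals, which left 4284209 to 21274803 counts. Without Cdk8 the low nuclease RPF libraries held 22378936 to 60377525 counts and the RNA-seq libraries 38505915 to 147207607. In 3 low nuclease RNA-seq libraries, 10 genes took 81.5% to 85.0% of the counts. Member counts summed to 29244 to 360161 in RPF libraries and to 11823 to 601685 in RNA-seq libraries. The 5 neuron markers summed to 8684 to 9341 in the WT pellet and 3694 to 4202 in WT RNA-seq, the 2 liver markers to at most 0.529 in any library. Levels are CPM without Cdk8, with the library totals scaled by 1 TMM normalization over all 36 libraries, written TMM-CPM.

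Proteasome mRNAs carried more RPFs for their RNA than the typical gene did. In the WT pellet of the standard preparation the 49 members summed to 5278, 5123 and 4707 TMM-CPM, and in WT RNA-seq to 2355 to 2466. Occupancy, the log2 ratio of pellet RPFs to whole-brain RNA, rose in 33 members, where 31.1% of all 16200 genes tested were called higher. It fell in 7 members, where 34.2% of all genes were called lower. The median over the members was 0.91, and −0.10 over all genes (edgeR quasi-likelihood test, adjusted p under 0.05). The direction depends on the scaling between RPF and RNA libraries. With library size alone 13 members were called higher, where 8.78% of all genes were, and 19 lower, where 67.6% were, and the sums overlapped, at 3476 to 4668 CPM in the pellet and 4043 to 4100 in RNA-seq. The member median was then −0.24 and the median of all genes −1.26. The members stood 1.01 above all genes under both scalings. Scaling whole libraries moves all genes by nearly the same amount, so this cannot test the distance. In bulk samples such as these, fewer cells of a type and less RNA per cell cannot be told apart. Coding length, which moved with occupancy over all genes (Spearman rho 0.37 over 15986 genes), moved with it over the members too (rho 0.54, n = 49), as a description. The coding share of the transcript also moved with occupancy, with rho 0.365 over the members and 0.270 over all genes.

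**Figure D1:**
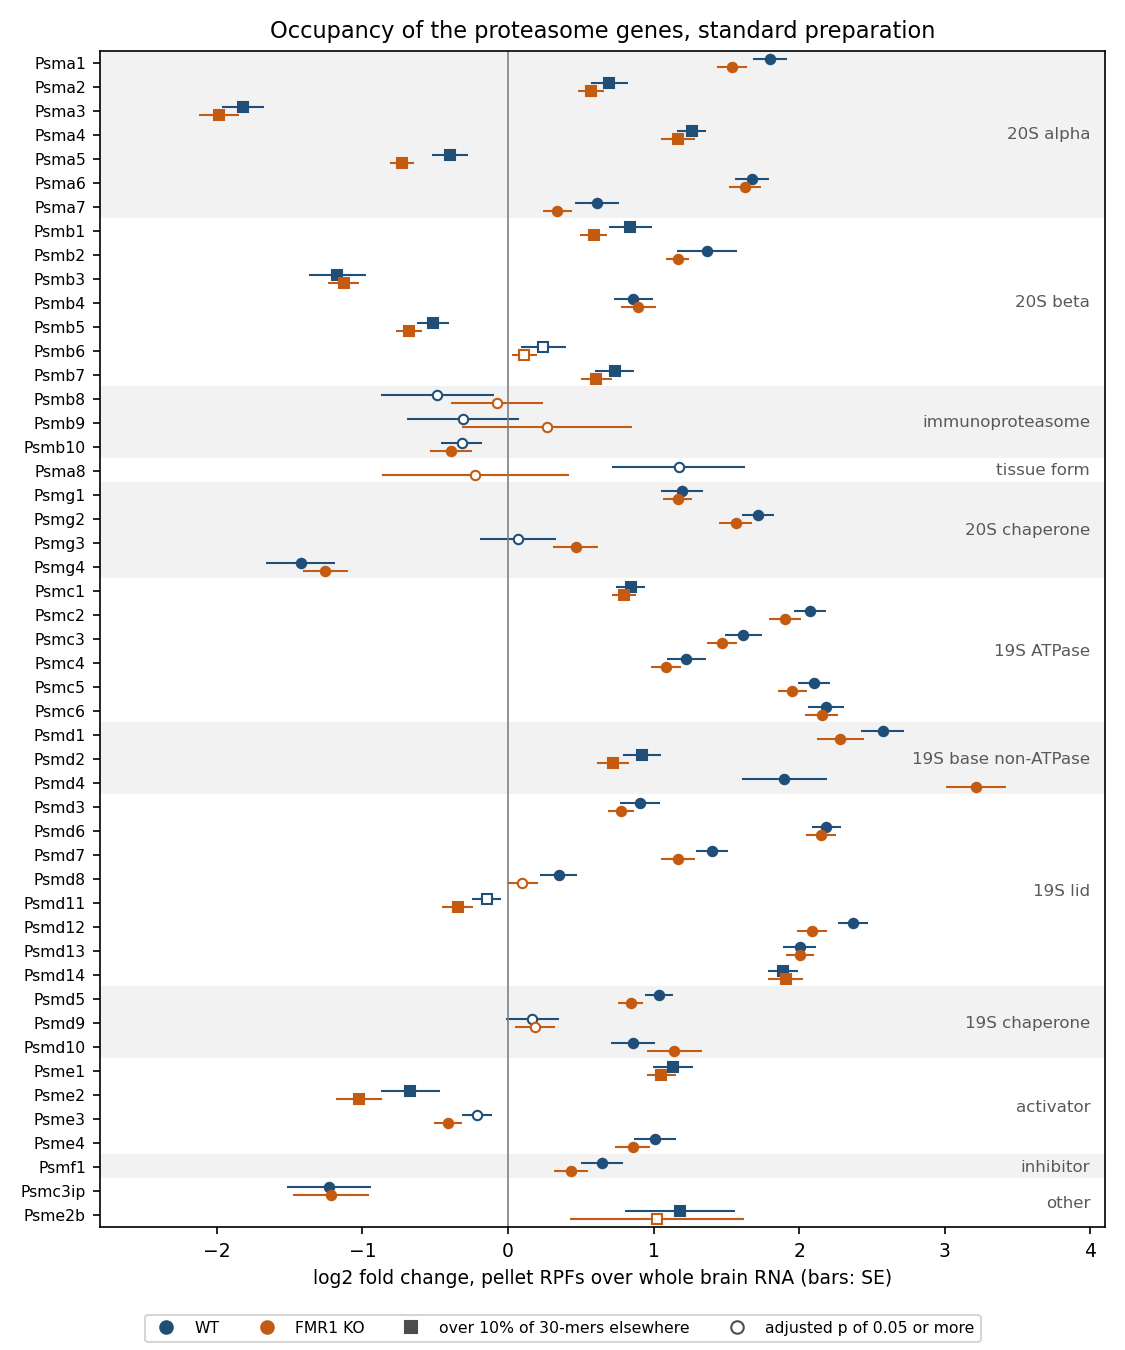
Occupancy (log2 ratio of pellet RPFs to whole-brain RNA, TMM scaling) of each proteasome gene in the standard preparation of WT and FMR1 KO, grouped by role, with error bars of 1 standard error. Filled points have an adjusted p under 0.05 and squares mark genes with over 10% of coding stretches elsewhere; the 19S subunits sit highest, with Psmd1 at 2.57 and Psmd12 at 2.37 in WT, and Psma3, at −1.82, sits lowest, while with library size alone in place of TMM 13 members are called higher and 19 lower.

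The 19S regulatory particle held the highest occupancy. Of its 17 subunits 16 were called higher in WT, with a median of 1.89. All 6 ATPases rose (median 1.85), as did all 3 non-ATPase base subunits (median 1.90) and 7 of 8 lid subunits (median 1.64). Psmd1, the scaffold of the base, was at 425, 351 and 458 TMM-CPM in the WT pellet and at 64.7, 79.7 and 76.7 in WT RNA-seq. Its occupancy of 2.57 (SE 0.15, adjusted p = 9.96e-06) was the highest of any member. The lid subunit Psmd12 was at 162, 161 and 151 in the pellet and 32.6, 33.1 and 32.4 in RNA, an occupancy of 2.37 (SE 0.10, adjusted p = 5.24e-06). The groups did not overlap in either gene. Psmd6, also of the lid, was at 176, 162 and 160 against 38.5, 39.5 and 38.7 (2.19, SE 0.10). Psmc6, an ATPase, was at 199, 206 and 176 against 47.9, 43.4 and 45.4 (2.18, SE 0.12). The exception was the lid subunit Psmd11, at 62.0, 61.2 and 57.2 in the pellet and 70.9, 72.0 and 70.9 in RNA (−0.15, adjusted p = 0.229). Of its coding 30-base stretches 51.5% occur elsewhere. Its coding sequence makes up 44.6% of its transcript, beside 52.4% in Psmc6, 84.4% in Psmd6 and 92.0% in Psmd1.

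Of the 14 subunits of the 20S core 9 were called higher and 4 lower (median 0.71), beside the 31.1% and 34.2% of all genes. Psma1, an alpha subunit with no coding stretch found elsewhere, was at 180, 188 and 164 TMM-CPM in the WT pellet and 56.0, 52.9 and 54.6 in RNA (occupancy 1.80, SE 0.12, adjusted p = 1.39e-05). Psma3 was the lowest, at 22.3, 20.3 and 17.6 in the pellet and 85.6, 71.9 and 70.4 in RNA (−1.82, SE 0.14, adjusted p = 3.21e-05). Both alpha subunits belong to the same ring of the barrel. Coding sequence makes up 27.0% of the Psma3 transcript. It makes up 24.2% of that of Psma2, which had means of 98.7 in the pellet and 65.3 in RNA. Psmb3 was at 21.6, 26.8 and 15.9 against 51.5, 53.1 and 51.2 (−1.17, SE 0.20, adjusted p = 0.00126). Psma5 was at 23.9, 28.5 and 23.3 against 34.6, 35.1 and 36.7 (−0.40, SE 0.12, adjusted p = 0.0236). Psma3, Psmb3, Psma5 and the active-site subunit Psmb5 were the 4 that fell. They are the 4 core subunits with the highest shares of coding stretches found elsewhere. In a split made after the values were seen, the 5 core subunits with 10% or less elsewhere all rose (median 1.36), and of the 9 with more, 4 rose and 4 fell (median 0.24). Over all members the rank correlation of occupancy with the share found elsewhere was weak, at −0.21 (n = 49) here and −0.060 (n = 47) in the low nuclease WT libraries, as a description. Whether reads from these genes were lost to their copies was not tested, and how the authors treated reads that match several places is not given in the sources used here.

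The active-site subunits differed among themselves. Psmb5 (chymotrypsin-like) was at 44.3, 45.1 and 40.4 in the WT pellet and 67.1, 69.6 and 62.0 in RNA (−0.52, SE 0.11, adjusted p = 0.00441). Psmb6 (caspase-like) was at 117, 124 and 90.9 in the pellet, which overlaps with 90.4 to 108 in RNA (0.24, SE 0.16, adjusted p = 0.203). Psmb7 (trypsin-like) was at 140, 158 and 128 against 99.2, 88.7 and 86.2 (0.73, SE 0.13, adjusted p = 0.00197). Of the coding stretches, 78.1% of Psmb5, 18.3% of Psmb6 and 19.9% of Psmb7 occur elsewhere.

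The immunoproteasome subunits were scarce. Psmb8 was at 0.592, 0.718 and 0.909 TMM-CPM in the WT pellet and 1.51, 0.912 and 0.814 in RNA. Psmb9 was at 0.296, 0.538 and 0.341 in the pellet and 0.423, 0.583 and 0.529 in RNA. Psmb10 was higher than both, at 15.9, 16.2 and 16.2 in the pellet and 24.1, 22.5 and 17.7 in RNA. None of these 3 genes was called in WT occupancy, with values of −0.49, −0.31 and −0.32 (adjusted p = 0.298, 0.498 and 0.0798). In the low nuclease WT fraction 5/6, Psmb8 was at 12.2 in replicate 1 and at 0.881 and 1.16 in the others, and Psmb9 at 3.55 and at 0.441 and 0.370. The 6 microglia markers summed to 279 TMM-CPM in that library and to 162 and 113 in the other two, and the part of microglia in these values was not tested. The testis subunit Psma8 had 0 to 6 counts in each standard RPF library.

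Assembly and activation factors spanned a wide range. Among the 20S chaperones, Psmg2 was at 24.3, 21.8 and 23.4 TMM-CPM in the WT pellet and 7.64, 7.18 and 7.76 in RNA (occupancy 1.72, SE 0.11). Its partner Psmg1 was also called higher (1.20), and Psmg4, at 2.61, 2.78 and 2.16 against 8.98, 7.16 and 5.67, was called lower (−1.42, SE 0.24, adjusted p = 0.00132). The 19S chaperones had 2 of 3 called higher (median 0.86). Of the activators, Psme1 (1.13) and Psme4 (1.01, SE 0.15) rose, Psme2 fell by 0.67 and Psme3 was not called (−0.21, adjusted p = 0.1). Psme1 and Psme2 together form the interferon-induced PA28 ring, and Psme4 is the large activator PA200. Psme2 was at 11.5, 14.4 and 8.97 in the pellet and 23.2, 18.1 and 18.3 in RNA, and 79.2% of its coding stretches occur elsewhere. The inhibitor Psmf1 rose by 0.65. Of the genes matched by symbol only, Psmc3ip fell by 1.23 and Psme2b had 8, 4 and 7 counts in the WT pellet, too few to describe.

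The comparison was repeated in FMR1 KO. In the standard pellet 32 members were called higher in occupancy, where 31.8% of all genes were, and 10 lower, where 35.2% were (median 0.79, all genes −0.07). Under library size alone 9 were called higher, where 7.95% of all genes were, and 18 lower, where 62.0% were. The 19S particle had 15 of 17 higher and 1 lower, Psmd11 (median 1.90), and the 20S core 9 higher and 4 lower (median 0.58). Psmd4, the ubiquitin receptor of the base, was highest at 3.22 (SE 0.21), followed by Psmd1 at 2.28. Psma3 was again lowest at −1.99, and Psma5 was at −0.73, Psmb3 at −1.13 and Psmg4 at −1.25.

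Fraction 5/6 was compared with RNA in the same way. In WT 34 members were higher, against 28.3% of all genes, and 5 lower, against 27.6% (median 1.09, all genes 0.01). The counts were again 34 and 5 when the library labelled WT fraction 5/6 replicate 3 was left out (27.9% and 32.0% of all genes). Leaving out replicate 2 of both groups left 22 higher and 2 lower, and the shares of all genes in that fit are not given here. The numbers were 7 higher and 15 lower under library size alone, beside 5.73% and 59.2% of all genes. In FMR1 KO 34 were higher, against 29.7% of all genes, and 3 lower, against 33.1% (median 1.11, all genes −0.10), and 16 and 11 with library size alone, beside 8.12% and 55.3%. Pellet and fraction 5/6 were compared with the same RNA-seq libraries, so these values share their controls.

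In the low nuclease preparation 47 members were tested. In WT 30 were higher, where 26.6% of all genes were, and none was lower by the edgeR test, where 25.5% were (median 1.03, all genes −0.02). In FMR1 KO 25 were higher, where 16.1% of all genes were, and 0 lower, where 12.8% were (median 1.07, all genes −0.04). Of the members, 1 in each genotype, Psmc3ip, was lower at an unadjusted p under 0.05, and DESeq2 called 0 lower in WT and 1 in FMR1 KO. The shares of all genes for these counts are not given here. Leaving out replicate 2 of FMR1 KO left 0 called, and the share of all genes called in that fit is not given here. Library size alone left 1 in WT and 0 in FMR1 KO, with member medians of 1.14 and 1.79, where it called 1.69% and 1.32% of all genes higher. Psmc6 was highest in WT at 3.49, then Psma1 at 3.04 and Psmg2 at 2.94. The subunits that fell under standard nuclease did not pass here, with Psma3 at 0.11, Psma5 at 0.29, Psmb3 at 0.37 and Psmb5 at 0.11. Psma3 was at 27.4, 26.4 and 29.7 in this pellet and 27.1, 27.2 and 24.9 in its RNA.

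Other proteins of the pathway were tested in the same fit. Of 17 proteasome partners outside the Psm symbols, 10 were called higher and 4 lower in WT occupancy (median 0.50), where 31.1% of all genes were higher and 34.2% lower. The largest values were those of Usp14, a deubiquitinase of the 19S particle (2.78), and the shuttle protein Ubqln2 (2.22). The smallest were those of the ubiquitin receptor Adrm1 (−0.97) and the shuttle protease Ddi2 (−0.71). As another complex of many subunits, the CCT chaperonin had 7 subunits tested, all called higher, with a median of 2.15.

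Levels can be compared between genes only per length. In the WT pellet the 14 core subunits, which are present in equal numbers in the barrel, ranged from 26.1 TMM-CPM per kb of coding sequence (Psma3) to 228 (Psma6). That is a range of 8.75-fold with an SD of 1.10 on the log2 scale. Divided instead by the kb of coding sequence whose 30-base stretches are found nowhere else, they ranged from 134 (Psma7) to 327 (Psma5), a range of 2.43-fold and an SD of 0.35. This division assumes that no read from shared stretches was counted, and it was chosen after the values were seen. The deposited peaks do not meet that assumption everywhere, since all 7 coding pellet peaks on Psma3 and 12 of 27 on Psma5 lay where every covering 30-base stretch occurs elsewhere too. The 7 beta subunits went from an SD of 1.01 to 0.18, within 170 to 248. Psma3 moved from 26.1 ± 3.0 (SD, n = 3) to 316 ± 37, and Psma1, with no shared stretch, stayed at 224 ± 16. In the FMR1 KO pellet the SD of the 14 subunits went from 1.11 to 0.38. In the low nuclease WT pellet it went only from 0.77 to 0.66, and in the FMR1 KO one it was 0.99 both ways. The latter includes Psma4, at 212, 117 and 979 TMM-CPM in its libraries. The beta subunits alone went from 0.69 to 0.47 in the low nuclease WT pellet and from 0.73 to 0.43 in the FMR1 KO one. The 17 subunits of the 19S particle ranged from 47.4 (Psmd11) to 198 (Psmd4) per coding kb in the WT pellet. Of the other members, the activator Psme1 lay among them at 143, Psme3 was at 69.8 and the inhibitor Psmf1 at 54.7. The 19S chaperone Psmd10 was at 19.5, the 20S chaperone Psmg2 at 29.2 and Psme4 at 15.3. The immunoproteasome subunits Psmb10 and Psmb8 were at 19.6 and 0.89. In the order of levels, neighbours such as Psma1 and Psma6, or Psmb2, Psmb7 and Psmb1, did not differ beyond their spread.

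**Figure D2:**
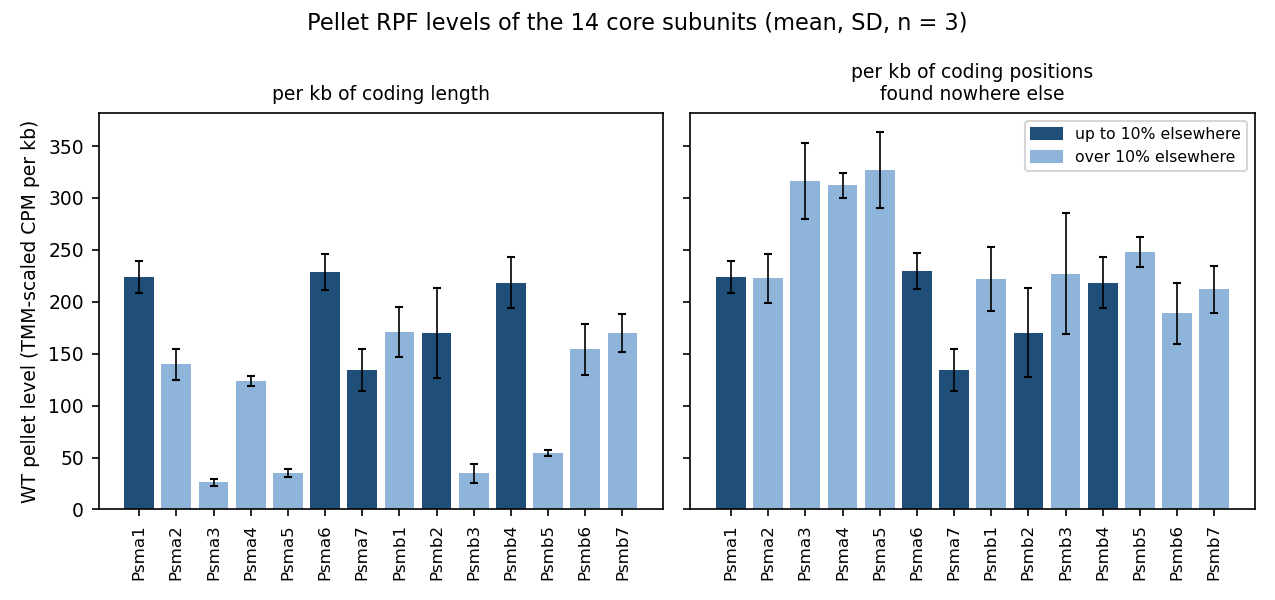
RPF level of the 14 core subunits in the WT pellet of the standard preparation, as TMM-CPM per kb of coding length (left) and per kb of coding positions found nowhere else in the genome (right), with bars for the mean and lines for the SD (n = 3). Gene means range over 8.75-fold on the left and 2.43-fold on the right, and the darker bars, with 10% or less elsewhere, hardly differ between the panels.

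Enrichment, the log2 ratio of pellet to fraction 5/6, was tested next, which compares the ribosomes that pellet with those that do not. The member medians given below lay slightly under those of all genes. Psmd1 and Psme4 lay above in each comparison, and Psmd4 did in the standard FMR1 KO libraries. In WT under standard nuclease 0 of 45 members were called by edgeR, where 0.0228% of all genes were called in either direction. DESeq2 also called 0, and 1 member, Psme4, had an unadjusted p under 0.05, where the share of all genes is not given here. Psmd1 was at 425, 351 and 458 TMM-CPM in the pellet and at 184, 210 and 437 in fraction 5/6, and the 437 is the library labelled WT fraction 5/6 replicate 3. Its enrichment was 0.62 (SE 0.38, adjusted p = 0.64), and 1.15 (SE 0.16, adjusted p = 0.0156) without that library. Psme4 was at 84.0, 75.1 and 94.5 in the pellet and 50.5, 54.9 and 74.2 in fraction 5/6, where 74.2 is again that library. Its enrichment was 0.55, and 0.76 (adjusted p = 0.0239) without it. Without that library 2 members were called higher, Psmd1 and Psme4, where 7.71% of all genes were, and 2 lower, Psmd12 and Psmd6, where 1.76% were.

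In FMR1 KO under standard nuclease 3 members were higher, where 10.1% of all genes were, and 3 lower, where 1.39% were (median −0.27, all genes 0.01). Psmd4 was at 599, 664 and 422 in the pellet and at 210, 262 and 226 in fraction 5/6 (1.37, SE 0.23, adjusted p = 0.0132). Psmd1 was at 478, 318 and 447 against 176, 246 and 175 (1.15, SE 0.22, adjusted p = 0.0211). Psme4 was at 101, 75.1 and 86.1 against 53.9, 61.2 and 46.6 (0.79, SE 0.14, adjusted p = 0.0166). In these 3 genes every pellet library lay above every fraction 5/6 library. The lower ones were Psma5 (−0.41), Psmb1 (−0.45) and Psmd11 (−0.37). With library size alone 0 were called (median −0.64, all genes −0.33), where 1.06% of all genes were higher and 0.165% lower. DESeq2 called 3 higher and 8 lower, beside 13.3% and 4.24% of all genes, and fitting all libraries of the preparation together also gave 3 and 8, beside 11.4% and 3.85%. No member was called without replicate 1 or without replicate 3 of both groups, 3 were without replicate 2, and 4 were without replicate 2 of the pellet only. With a replicate block 1 was called. The shares of all genes called in these fits are not given here.

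In the low nuclease preparation the 2 long genes were again higher. In WT 2 of 48 members were higher, where 14.3% of all genes were, and 17 lower, where 8.58% were (median −0.37, all genes −0.02). Psmd1 was at 279, 280 and 259 in the pellet and 87.3, 144 and 69.2 in fraction 5/6 (1.46, SE 0.27, adjusted p = 0.0188). Psme4 was at 72.9, 68.6 and 72.1 against 24.2, 49.3 and 28.4 (1.08, SE 0.26, adjusted p = 0.0347). Among the members called, the largest falls were those of Psmd12 (−0.73), Psmd4 (−0.65), Psmd6 (−0.61) and Psmd14 (−0.60), all 19S subunits. Psmd12 was at 103, 123 and 101 in the pellet and 186, 180 and 176 in fraction 5/6. In FMR1 KO 2 were higher, where 9.31% of all genes were, and 13 lower, where 10.7% were (median −0.34, all genes −0.03). They were Psmd1 (1.45, SE 0.22, adjusted p = 0.0161) and Psme4 (0.96, SE 0.14, adjusted p = 0.0138). The largest falls among the members called were those of the 20S chaperones Psmg4 (−0.93) and Psmg3 (−0.79), of Psma7 (−0.65) and of Psmd4 (−0.63). With library size alone 36 members were lower, where 27.2% of all genes were, and 2 higher, where 7.41% were. Fitting all libraries of the preparation together left 2 higher and 5 lower in WT, beside 6.91% and 1.26% of all genes, and 2 higher and 0 lower in FMR1 KO, beside 5.53% and 1.06%. Leaving out any 1 replicate number from both groups left 0, 2 and 0 members called in WT and 0 in each case in FMR1 KO. The shares of all genes in those fits are not given here, so a loss of calls over all genes cannot be told from one among the members.

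Psmd4 thus went both ways, with the pellet above fraction 5/6 in the standard FMR1 KO libraries and below it under low nuclease. In the low nuclease FMR1 KO libraries it was at 140, 119 and 124 in the pellet and 216, 176 and 184 in fraction 5/6. Psmd1 and Psme4, at 2862 and 5532 coding bases, are the longest members. Psmd2, at 2727 bases, was not called in any of these 4 comparisons. Over the members the rank correlation of enrichment with coding length was 0.27 (n = 45) and 0.19 (n = 48) in WT, standard and low, and 0.39 (n = 46) and 0.62 (n = 48) in FMR1 KO. The standard WT value over the members was 0.27 with and without the library that goes against its label. Over all genes it was 0.42 (0.46 without that library), 0.48, 0.57 and 0.60, so that longer genes tended to lie higher in the whole table. These correlations are across genes of the same libraries and are given as a description.

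**Figure D3:**
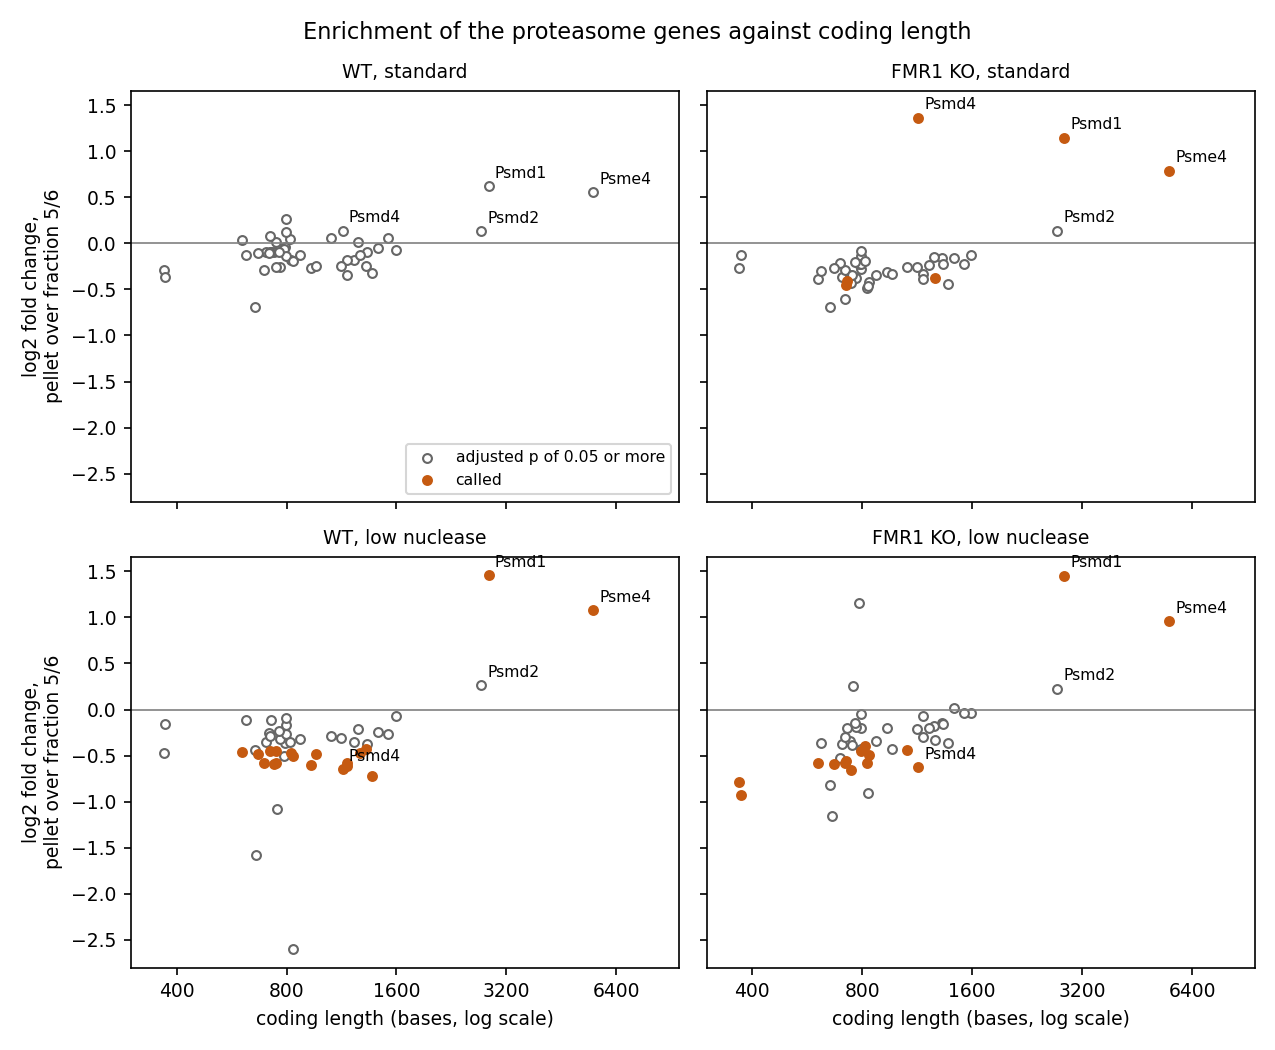
Enrichment (log2 ratio of pellet to fraction 5/6) of the proteasome genes against coding length in bases on a log axis, for both genotypes and preparations, 1 point for each gene and filled where the adjusted p was under 0.05. Psmd1 and Psme4 lie above the other members in both WT panels, Psmd4 lies above them in the standard FMR1 KO panel, and an open point at 1.15 (Psma4) lies between them in the low nuclease FMR1 KO panel.

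**Figure D4:**
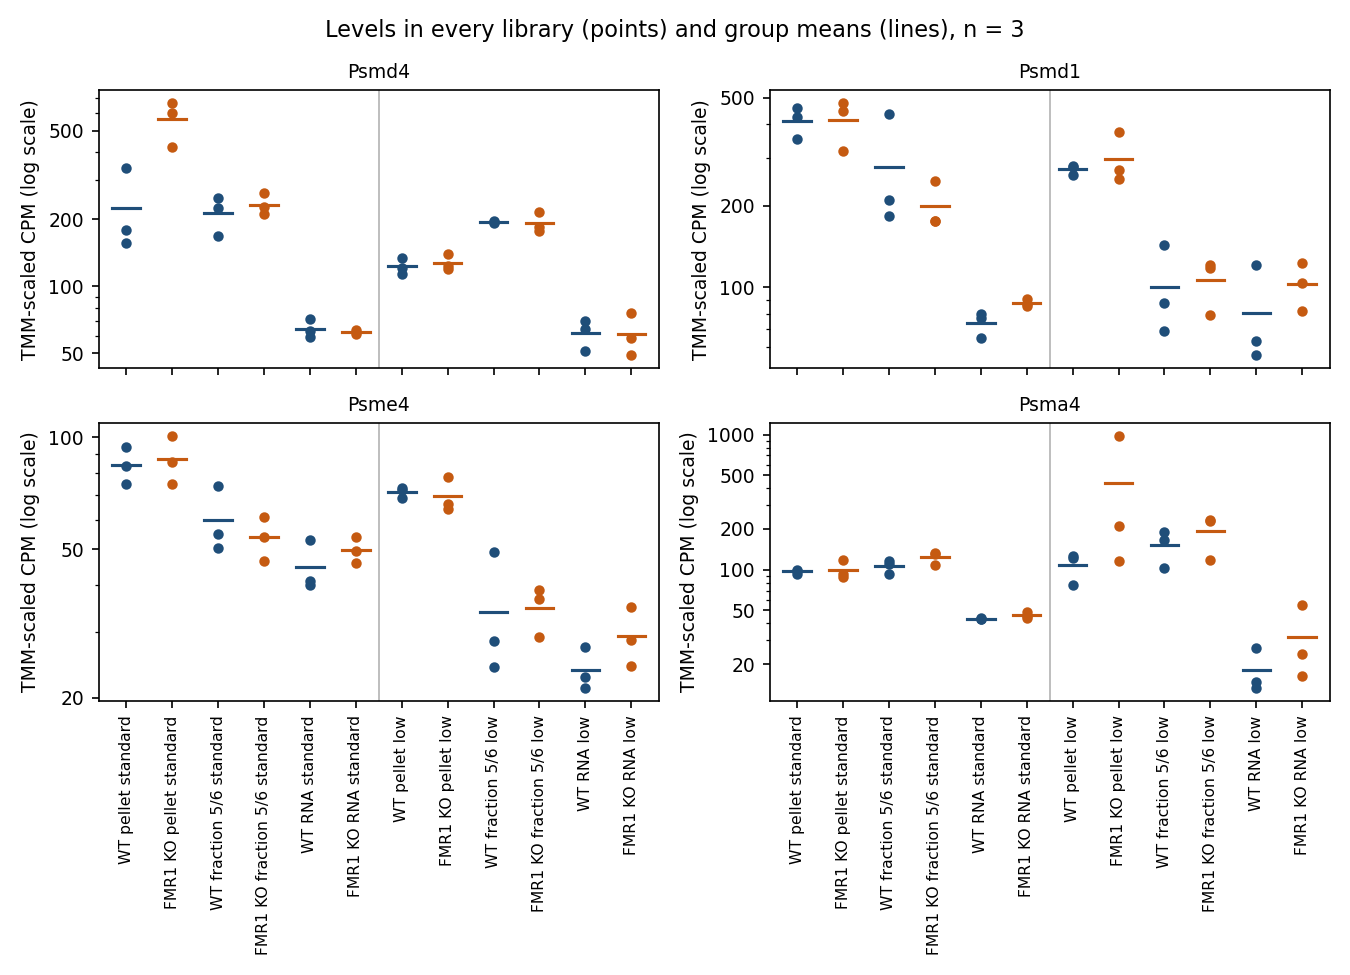
Levels of 4 named members in each library, in TMM-CPM on a log axis, with 1 point for each library and a line for the mean of each of the pellet, fraction 5/6 and RNA-seq groups of both genotypes and preparations. Psmd1 in the library labelled WT fraction 5/6 replicate 3 sits at 437, among the pellet libraries.

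The pellets of the preparations were compared within each genotype. In WT 18 of 47 members were higher under standard nuclease, where 15.0% of all genes were, and 2 lower, where 24.0% were (median 0.26, all genes −0.04). Under library size alone none was higher, where 2.02% of all genes were, and 11 were lower, where 49.2% were, with the median of all genes at −0.57. No member was called without replicate 1, and 7 were without replicate 2, where the shares of all genes are not given here. Psme1 was at 114, 113 and 93.9 TMM-CPM under standard and 59.1, 63.3 and 52.8 under low nuclease (0.81, SE 0.13, adjusted p = 0.00669). Psma6 was at 176, 178 and 154 against 107, 97.9 and 89.4 (0.72, SE 0.12). The lid subunit Psmd3 went the other way, at 162, 155 and 144 against 212, 222 and 215 (−0.56, SE 0.10, adjusted p = 0.00903). Psma3 was the other that was lower (−0.53). In FMR1 KO 5 of 46 were higher, where 7.42% of all genes were, and 2 lower, where 9.53% were (median 0.29). Psmd4 was the largest (2.12), and Psmd3 and Psma3 were again the lower ones, both at −0.59. Under library size alone 1 was higher and 5 lower (2.02% and 25.8% of all genes), DESeq2 called 16 higher and 4 lower (1995 and 2253 of all 14255 genes), and leaving out replicate 1, 2 or 3 of both groups left 2, 1 and 0 called. Without replicate 2 of the standard pellet only, 4 were called, and with a replicate block 1 was. The shares of all genes called with the block or without a replicate are not given here.

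The genotype comparison addresses whether loss of FMRP changes these mRNAs in the pellet and the other libraries. No member was called between FMR1 KO and WT by edgeR in any of 6 comparisons. In the standard pellet 0 of 45 were called, where 0.0152% of all genes were (median −0.03), and in standard fraction 5/6 0 of 46, where 0% were (median 0.14, and 0.025 without the library that goes against its label). In standard RNA-seq 0 of 49 were called, where 0.0735% were (median 0.04). The low nuclease pellet had 0 of 47 called, where 0.0197% were (median 0.07), and in low nuclease fraction 5/6 0 of 49, where 0.0445% were (median 0.01). In low nuclease RNA-seq, with the libraries dominated by a few genes included, 0 of 48 were called, where 0% were (median 0.13). At an unadjusted p under 0.05 there were 1, 0, 1, 3, 3 and 1 members in this order, and the shares of all genes at that threshold are not given here. Nor was any member called in the interaction of genotype with occupancy, where 0.0669% of all genes were, or with enrichment, where 0% were. In these, 1 and 2 members had an unadjusted p under 0.05, again without the shares of all genes. DESeq2 called 1 member, Psmd4 in the standard pellet, and 0 in the other genotype comparisons. The share of all genes that DESeq2 called there is not given here, so how rare such a call was cannot be told. Leaving out the library that goes against its label also gave 0 members in fraction 5/6 (0% of all genes higher and 0.0305% lower) and in the enrichment interaction.

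The precision of these estimates differed. The 95% interval (normal approximation) lay within ±1 (log2) for 44 of 45 members in the standard pellet, 48 of 49 in standard RNA-seq and 46 of 47 in the low nuclease pellet. In standard fraction 5/6, with the library that goes against its label kept, it did so for 44 of 46, with a median SE of 0.188. In low nuclease fraction 5/6 it did so for 46 of 49. In low nuclease RNA-seq it did so for 24 of 48, with a median SE of 0.339 against 0.0989 in standard RNA-seq. With 3 libraries in each group the normal approximation gives narrower intervals than the test does. Psmb5 in standard fraction 5/6 had an interval of 0.002 to 0.645, though no member there had an unadjusted p under 0.05 (edgeR).

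Psmd4 was the member with the largest difference in the standard pellet. It was at 339, 179 and 157 TMM-CPM in WT and 599, 664 and 422 in FMR1 KO, and the groups did not overlap. The log2 difference was 1.31 (SE 0.34, adjusted p = 0.863 by edgeR), and 1.32 with an adjusted p of 0.00305 by DESeq2. Over the other alternatives the edgeR adjusted p ranged from 0.182 to 1. Its RNA was at 63.3, 71.4 and 59.2 in WT and 62.6, 63.7 and 61.5 in FMR1 KO, which overlap. In fraction 5/6 it was at 249, 225 and 168 against 210, 262 and 226, where 168 is the library that goes against its label. Under low nuclease its pellet level was 121, 134 and 114 in WT and 140, 119 and 124 in FMR1 KO, which overlap as well. The groups were thus apart in the standard pellet and not in the low nuclease one. The other large value was that of the alpha subunit Psma4 in the low nuclease pellet, at 76.5, 125 and 121 in WT and 212, 117 and 979 in FMR1 KO. Its log2 difference of 2.02 (SE 0.82, adjusted p = 0.907) rests on the FMR1 KO library at 979.

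**Figure D5:**
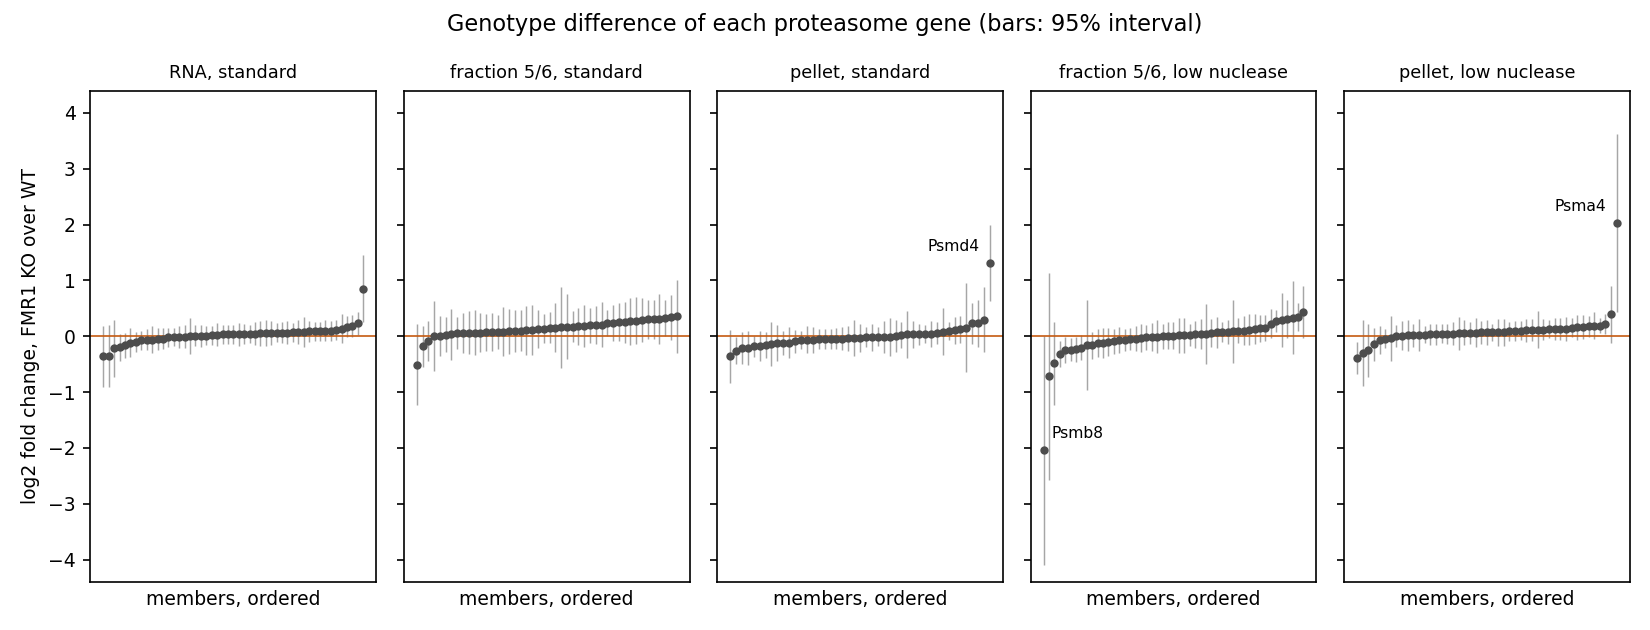
Log2 difference between FMR1 KO and WT of each proteasome gene in 5 comparisons (low nuclease RNA-seq is not drawn), ordered by value, with lines for the 95% interval (normal approximation). The points farthest from 0 are Psma4 at 2.02 in the low nuclease pellet, Psmb8 at −2.05 in low nuclease fraction 5/6 and Psmd4 at 1.31 in the standard pellet.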

How the data were processed

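The data were 36 RPF and RNA-seq libraries. Pellet and fraction 5/6 are fractions of the same kind of gradient, and the labels do not say which libraries came from one homogenate, so p-values measure the spread between libraries. The authors made the deposited counts, whole numbers per gene without normalization, with Cutadapt 2.10, Bowtie2 2.3.5 (removal of ribosomal and other non-coding RNA), STAR 2.7.8a on GRCm38 with Ensembl 102, Picard, SAMtools 1.19.2 and featureCounts 2.2.0. Their handling of multi-mapped reads is not given in the sources used here. The deposited peaks of RPF coverage were called by the authors per sample on transcripts, and peak heights are coverage signal not scaled between samples.

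Groups were taken from the sample labels. Counts of protein-coding genes (biotypes from GENCODE M21) without Cdk8 were tested in R 4.3.3 by the package edgeR 4.0.16, with limma 3.58.1 as its base (filterByExpr, TMM, quasi-likelihood test, Benjamini-Hochberg adjustment over all genes tested, threshold 0.05), fitting the compared libraries only. DESeq2 1.42.0, library size alone and leaving out replicates were among the alternatives. The fit was tested on simulated data. The rest used Python 3.11.15, pandas 2.3.3, numpy 2.4.6 and matplotlib 3.10.9. Uniqueness of coding sequence was found by searching each 30-base stretch of a member on both strands of GRCm38. RNA counts cover whole transcripts and RPFs mainly the coding part, so occupancy also moves with the coding share of a transcript. The members, role lists, partner list and the CCT list were chosen with earlier results of these data known. Values in every library were given for the 4 largest and 4 smallest called fold changes of the main comparisons, the active-site subunits with their immunoproteasome counterparts and the 2 smallest genotype p-values, where they added to the text. Same-numbered samples deviated together in the low nuclease WT pellet and fraction 5/6 only (correlations 0.188, 0.118 and 0.210), which the data and not the labels show. Intervals cover the spread between libraries only.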

Additional observations from a re-analysis of the deposited data

Results flagged for a closer look

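For a few members every library of one group lay on one side and every library of the other group on the opposite side, and none of these differences between preparations was tested. The values are differences of log2 ratios of mean TMM-CPM, standard minus low nuclease, and the reason was not tested. For Psmd4 the ratio of pellet to fraction 5/6 in FMR1 KO was 1.27 under standard and −0.59 under low nuclease, a difference of 1.86. For the ratio of pellet to RNA in WT the differences were −0.74 for Psma5, −1.61 for Psmb3 and −0.47 for Psmd11, all below 0 under standard and above 0 under low nuclease. The RNA means differed between the preparations too. Under standard and low nuclease, RNA was at 35.5 and 24.9 for Psma5, 52.0 and 24.3 for Psmb3 and 71.2 and 42.9 for Psmd11. The pellet was at 25.2 and 29.6, 21.4 and 30.6, and 60.2 and 50.1. The low nuclease WT RNA-seq includes replicate 2, where 10 genes took 81.5% of the counts. For the retrocopy Psme2b the difference came out at 1.74, but it had only 4 to 8 counts in each WT pellet library of both preparations and 2 in 1 low nuclease RNA-seq library, too few to read a direction from. For the ratio of fraction 5/6 to RNA the differences were −1.99 for Psma3 in WT, −1.53 for Psmb3 in WT and −1.43 for Psmb3 in FMR1 KO, and the WT values include the library labelled WT fraction 5/6 replicate 3. Under standard and low nuclease, Psma3 in WT was at 76.0 and 26.4 in RNA and at 25.1 and 34.8 in fraction 5/6. For the 20S chaperone Psmg4 the FMR1 KO pellet lay above the WT pellet under standard nuclease (0.26) and below it under low nuclease (−0.38), a difference of 0.64.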

How the results depend on the processing

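Of the counts of members called and the other summary values under the alternatives, 193 stayed within the limits of the reported value and 40 moved, and of the values of named genes 896 kept direction and call, 213 kept direction only, 1 gained the call and 7 changed direction. The causes were not tested. With library size alone in place of TMM the number of members called was 22 (39 reported) for WT fraction 5/6 against RNA, 27 (42) for FMR1 KO occupancy, 1 (30) and 0 (25) for low nuclease WT and FMR1 KO occupancy, 11 (20) for the WT preparations, 0 (6) for standard and 38 (15) for low nuclease FMR1 KO enrichment. DESeq2 called 11 for standard FMR1 KO enrichment, 20 (7) for the FMR1 KO preparations and 1 (0) for the standard pellet genotypes. Without a filter standard FMR1 KO enrichment had 3. With a replicate block it had 1 and the FMR1 KO preparations 1, and the block moved no other count by over 1.5 times. Fitting all libraries of a preparation together gave 7 (19) for low nuclease WT, 11 for standard and 2 for low nuclease FMR1 KO enrichment. Leaving out 1 replicate gave 24 to 39 for WT fraction 5/6 against RNA, 0 to 4 for standard and 0 to 2 for low nuclease WT enrichment, 0 to 20 for the WT and 0 to 4 for the FMR1 KO preparations, 0 to 4 for standard and 0 to 0 for low nuclease FMR1 KO enrichment, and 0 to 26 for low nuclease FMR1 KO occupancy. It left 36 to 38 for WT and 36 to 41 for FMR1 KO occupancy under standard nuclease and 0 in the genotype comparisons. For the fits without a replicate number, with a block or without a filter the shares of all genes called are not given here. A change particular to the members therefore cannot be told from one over all genes. Peaks shared by all pellet libraries were 5 within 3 nt and 13 within 12 nt (8 reported), and 9 to 16 without 1 replicate, and the median member peaks of the 6 pellet libraries were 83 (136) in the upper part of the heights. The SD of core levels was 0.35 per unique kb (1.10). With the RNA-seq of the other preparation Psmg4 was at 0.043 and Psmb3 at 0.33 in fraction 5/6 against RNA. With library size alone Psmc1 was at −0.25 and Psmd7 at −0.15 between the WT preparations, Psmd8 at −0.36 in FMR1 KO fraction 5/6 against RNA, and Psma3 at −0.25 and Psma2 at −0.11 in the low nuclease RNA-seq genotypes. Depth limits Psmb8, Psmb9, Psma8 and Psme2b, which had 14 counts or fewer in each standard RPF library.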
